A study of Schmidtea mediterranea with 14 samples.

Results

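The 48 transcripts described here are the planarian homologs of cilium and axoneme proteins, together with proteins whose names are alike. They were chosen by name alone: the closest human protein given for the transcript carries a symbol of the axonemal dyneins (DNAH and its relatives), the intraflagellar transport proteins (IFT), the BBSome (BBS), the cilia and flagella associated proteins (CFAP), the dynein regulatory complex (DRC), the tubulins, or one of the families in which many axoneme proteins were named (CCDC, LRRC, WDR, TTC, ARMC). The rule itself used no measured change, though it was set with earlier results of these data known. The tables of best hits were held only in part, and some were ordered by a measurement. All 48 passed the filter on low counts, of 18436 transcripts tested, and 1936 of the tested transcripts had a human best hit in the tables used here. Of the 48, 21 have a best hit with a known cilium role, 7 are tubulins or a gamma-tubulin partner, and 20 only share a family name with cilium proteins. A best hit names the most similar human protein, and transcripts can share one.

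RNA was measured in whole, uninjured planarians (*Schmidtea mediterranea*, the asexual clonal line CIW4) in 14 libraries, each a separate pool of 5 to 6 animals. The 6 control libraries came from animals fed dsRNA of *egfp*, a jellyfish gene that planarians lack, and the 4 *apob-M* and 4 *apob-S* libraries from animals that received *apob-1* dsRNA together with *apob-2* dsRNA, the planarian homologs of apolipoprotein B. Feeding was repeated 3 times in every group and was followed by 7 days without food. The *apob(RNAi)* animals were placed in *apob-M* or *apob-S* by their phenotype rather than at random. In the study, the mild class showed modest or regional depigmentation. The severe class showed depigmentation of the whole animal together with reduced motility. The extent of the phenotype, motility included, and group membership cannot be told apart. Levels are given as normalized CPM, which is the count divided by the library size after TMM scaling. A transcript is said to rise or fall where edgeR's quasi-likelihood test gave an adjusted p under 0.05 over all transcripts tested, and changes are given on the log2 scale ± the SE of the fit.

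Total counts ranged from 16839133 to 23039326 per library, and libraries of 1 group differed by more than sampling noise. The targeted transcripts were lower in every knockdown library, *apob-1* by a log2 fold change of -2.41 in *apob-M* and -2.29 in *apob-S*, and *apob-2* by -1.43 and -1.67. The 2 knockdown groups share the same 6 control libraries.

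Motile cilia beat by means of an axoneme, a ring of microtubule doublets built from alpha- and beta-tubulin, on which dynein heavy chains act as motors. The dynein regulatory complex and the radial spokes control these motors, and intraflagellar transport carries building blocks into the cilium from its base. Planarians glide on the cilia of their ventral epidermis, and also carry motile cilia in the flame cells of their protonephridia.

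In *apob-M* 3 of the 48 homologs rose and 5 fell, where 7.05% of all transcripts tested rose and 8.24% fell. In *apob-S* 7 rose and 18 fell, which is 14.6% and 37.5% of the homologs, beside 13.5% and 15.7% of all transcripts tested. Between the 2 knockdown groups 14 homologs (29.2%) were lower in *apob-S* relative to *apob-M*, beside 6.86% of all transcripts, and 0 were higher, beside 5.17%. At an unadjusted p under 0.05, 2 homologs were higher in *apob-S* relative to *apob-M* in edgeR's quasi-likelihood test, and edgeR's exact test and DESeq2 also called 0 higher. With a filter at 5 CPM, 46 homologs were tested, and larger shares of all transcripts passed in either direction. These were 22.8% in *apob-M*, beside 8 homologs, and 40% in *apob-S*, beside 25. Between the knockdown groups the share was 17.9%, beside 14 homologs.

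By their single libraries, 2 homologs lay above and 5 below all controls in *apob-M* without overlap, beside 6.09% and 6.44% of all transcripts tested. In *apob-S* 5 homologs lay wholly above control and 14 wholly below, beside 10.4% and 11.7%. Between the knockdown groups 1 homolog had all its *apob-S* libraries above *apob-M* and 15 had them all below, beside 7.04% and 8.73%.

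Of the 18 homologs that fell in *apob-S*, 12 have a cilium role. These are 12 of 21 such homologs (57.1%), beside 15.7% of all transcripts tested, while 1 rose, and 20 had a negative fold change. Their median log2 fold change was -0.287, while the median of all transcripts tested was -0.003. In *apob-M* 1 of the 21 fell and 1 rose (4.76% each, beside 8.24% and 7.05% of all transcripts), and the median was 0.002. The direct comparison of the knockdown groups gave 10 of 21 lower in *apob-S* (47.6%, beside 6.86% of all transcripts), with a median of -0.22. These counts have no test of their own, since the homologs were chosen with earlier results of these data known. Within groups, the levels of the 21 also varied together and are not independent (mean pairwise correlation 0.191, beside 0 over all transcripts). In whole animals, fewer ciliated cells and less RNA per cell cannot be told apart.

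Of the 20 name-alike homologs, 5 rose in *apob-S* (25%) and 2 fell (10%), beside 13.5% and 15.7% of all transcripts tested. Their median was 0.099. In *apob-M* 1 rose (5%, beside 7.05%) and 0 fell (beside 8.24%), with a median of 0.046. Most of the tubulin changes were already past the threshold in *apob-M*, where 4 of 5 alpha-tubulins fell and 1 rose (80% and 20%, beside 8.24% and 7.05%).

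**Figure D1:**
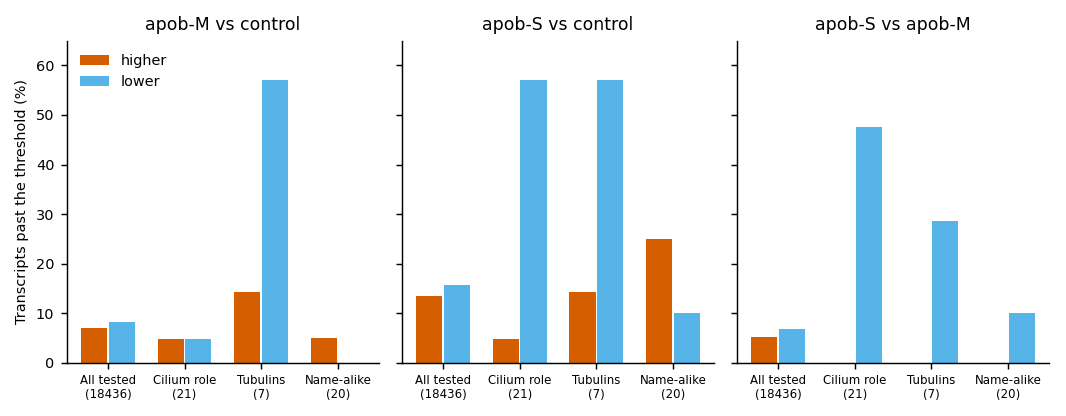
Share of transcripts past the threshold (y axis, percent) that were higher (orange) or lower (light blue) in each of the 3 comparisons, for all 18436 transcripts tested and for the cilium-role, tubulin and name-alike homologs. The cilium-role homologs have a tall bar for lower in *apob-S* against control (57.1%) and in *apob-S* against *apob-M* (47.6%), and a short one in *apob-M* against control (4.76%).

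The best hits came from 3 tables that were each held in part. Of these, 1 lists the study's own *apob(RNAi)* comparisons and is ordered by transcript identifier rather than by change. Whether the identifier goes with level or change was not tested. That table supplied 30 of the 48 homologs and 17 of the 21 with a cilium role. Of these 17, 10 fell in *apob-S* (58.8%, beside 15.7% of all transcripts tested), all 17 had a negative fold change, and the median was -0.287. The median over the 21 was the same, but the 17 are most of the 21. The other tables are ordered by the response to another knockdown or by enrichment in stem cells and supplied 10 and 8 homologs.

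When the homologs of a role group were summarised by the median of log2 CPM over their members, set against the control mean, the cilium-role group lay between -0.083 and 0.035 in control, between -0.051 and 0.11 in *apob-M*, and between -0.259 and -0.156 in *apob-S*. The *apob-S* libraries did not overlap with either of the other groups. The highest of all 14 libraries was *apob-M* replicate 2. Without that library, the median fold change of the 21 in *apob-M* was -0.037, and 7 rather than 10 of them were lower in *apob-S* relative to *apob-M*. Over all transcripts tested, 8.85% then passed between the knockdown groups in either direction, where 6.86% were lower and 5.17% higher with all libraries.

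**Figure D2:**
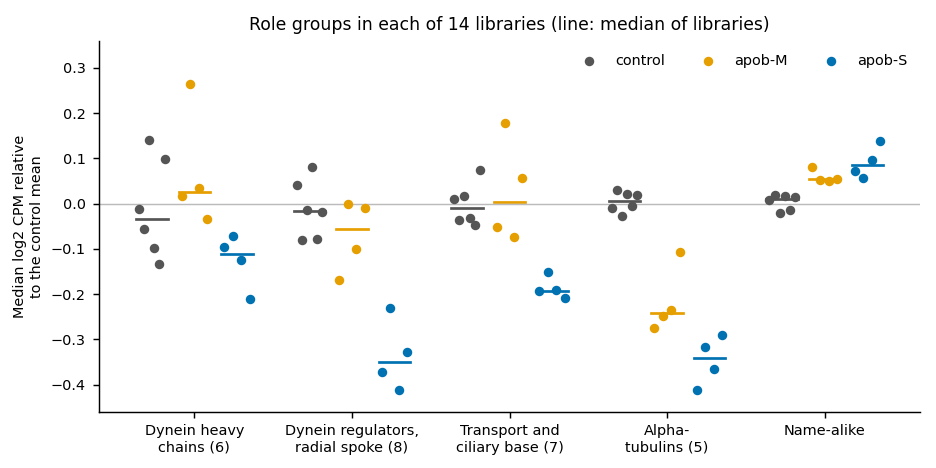
Median over the homologs of a role group of log2 CPM relative to the control mean (y axis), with 1 point per library and a line at the median of the libraries of each group. For the dynein regulators and for the transport and ciliary base homologs, the *apob-S* libraries lie below both other groups without overlap. The alpha-tubulins are low in both knockdown groups, also without overlap with control. The highest point for the dynein heavy chains and for the transport group is 1 *apob-M* library (replicate 2).

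Among the 6 homologs of axonemal dynein heavy chains, the ATP-driven motors of the axoneme, 2 fell (33.3%) and 1 rose (16.7%) in *apob-S*. Of all transcripts tested, 15.7% fell and 13.5% rose there. Relative to *apob-M*, 3 of the 6 were lower in *apob-S* (50%), beside 6.86% of all transcripts. Per kilobase of transcript, the control level was highest for the homolog of DNAH5, an outer arm heavy chain, at 11.4 CPM, followed by DNAH3 at 7.6, DNAH6 at 7.01, DNAH17 at 3.56, and the transcripts with best hit DNAH10 at 2.38 and 2.16.

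The DNAH3 homolog (dd_Smed_v6_10846_0_1), an inner arm heavy chain, was found at 51.9 to 63.9 CPM in control (median 57.8). Its level was 56.1, 67.5, 55.6 and 53.0 CPM in the *apob-M* libraries and 45.8, 46.9, 41.7 and 38.4 CPM in the *apob-S* libraries. Every *apob-S* library lay below every control and every *apob-M* library, while *apob-M* overlapped with control. The log2 fold change was -0.41 ± 0.075 in *apob-S* (adjusted p = 0.00028) and 0.01 ± 0.073 in *apob-M* (adjusted p = 0.938).

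The longer of the DNAH10 homologs (dd_Smed_v6_10425_0_1, 14125 bases), also an inner arm chain, showed the same order. Its closest mouse protein is Dnah10 and its closest zebrafish protein dnah2. Control libraries were at 29.5 to 42.7 CPM (median 32.3), *apob-M* at 28.9, 40.6, 32.5 and 31.5, and *apob-S* at 25.3, 27.1, 25.1 and 22.8. Again no *apob-S* library reached the lowest control. It fell by 0.42 on the log2 scale in *apob-S* (SE 0.098, adjusted p = 0.00267), and the difference from *apob-M*, -0.41 ± 0.11, lost its call without *apob-M* replicate 2 (-0.30, adjusted p = 0.0692).

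The shorter transcript with the best hit DNAH10 (dd_Smed_v6_8201_0_1, 2217 bases) went the other way, and was the single cilium-role homolog that rose. It was found at low levels, 3.74 to 6.56 CPM in control (median 4.7), 7.68, 7.01, 6.03 and 6.39 CPM in *apob-M*, and 7.41, 7.33, 8.76 and 8.27 CPM in *apob-S*. The *apob-S* libraries all lay above control, while 2 of the *apob-M* libraries overlapped with the highest control. Its log2 fold change reached 0.72 ± 0.13 in *apob-S* (adjusted p = 0.0002) and 0.49 ± 0.13 in *apob-M* (adjusted p = 0.0132), and the call in *apob-M* was lost without *apob-M* replicate 1 (adjusted p = 0.0537).

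The other heavy chain homologs did not pass the threshold against control. DNAH5 (dd_Smed_v6_4569_0_1) had values of 149 to 176 CPM in control, 164 to 193 in *apob-M* and 138 to 163 in *apob-S*. It differed between the knockdown groups (-0.23, adjusted p = 0.0236), a call lost in 5 alternative settings, 3 of which left out *apob-M* replicate 2, *apob-S* replicate 3 or *apob-S* replicate 4 (adjusted p 0.0676 to 0.195). The changes of DNAH6 and DNAH17 in *apob-S* were -0.05 and -0.11, with adjusted p of 0.758 and 0.546.

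The next group holds the homologs of dynein assembly, dynein regulation and the radial spoke. In *apob-S* 6 of the 8 fell (75%, beside 15.7% of all transcripts tested), all 8 had a negative fold change, and the median was -0.323. In *apob-M* the median was -0.113 and 1 fell (12.5%, beside 8.24% of all transcripts). Relative to *apob-M*, 4 were lower in *apob-S* (50%, beside 6.86%).

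A pair of transcripts had the best hit CFAP44, a protein of the tether that holds inner dynein arms to the doublet microtubule in the ciliate *Tetrahymena* and the alga *Chlamydomonas*. Their closest mouse proteins were Cfap43 and Cfap57, so which member of the family they match is uncertain. The first (dd_Smed_v6_10271_0_1) was found at 30.3 to 40.2 CPM in control (median 33.8), at 28.1, 37.5, 31.1 and 31.7 in *apob-M*, and at 24.9, 26.9, 24.4 and 21.3 in *apob-S*. It fell by 0.52 on the log2 scale in *apob-S* (SE 0.088, adjusted p = 0.000149), with no overlap with control, and had the most negative fold change of the cilium-role homologs in that group. The second (dd_Smed_v6_3323_0_1), the most abundant cilium-role homolog per kilobase at 33.4 CPM, was found at 128 to 146 CPM in control (median 139), at 127, 140, 129 and 145 in *apob-M*, and at 104, 115, 106 and 101 in *apob-S*. Control and *apob-M* overlapped, all *apob-S* libraries lay below both, and the log2 fold change in *apob-S* was -0.37 ± 0.051 (adjusted p = 1.56e-05).

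The transcript with the best hit DRC1 (dd_Smed_v6_6152_0_1), a subunit of the nexin-dynein regulatory complex that links neighbouring doublets, was the cilium-role homolog that fell in both knockdown groups. Its closest mouse and zebrafish protein is Ccdc65, another subunit of the same complex. Control libraries were at 39.9 to 45.1 CPM (median 41.1), *apob-M* at 36.4, 38.8, 35.5 and 38.7, and *apob-S* at 30.5, 31.6, 30.4 and 29.6. The 3 groups did not overlap and lay in the order control, *apob-M*, *apob-S*. The log2 fold change was -0.16 ± 0.042 in *apob-M* (adjusted p = 0.0133), -0.45 ± 0.043 in *apob-S* (adjusted p = 1.48e-07) and -0.29 ± 0.047 between them (adjusted p = 0.000328). The call in *apob-M* was lost without *apob-M* replicate 3 (adjusted p = 0.0829) and with library size alone as the scaling (adjusted p = 0.12).

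The CFAP70 homolog (dd_Smed_v6_10893_0_1), known in mouse and *Chlamydomonas* as a protein of the outer dynein arm, showed the widest gap between the knockdown groups within this role group. It was found at 29.6 to 34.8 CPM in control (median 31.5), at 32.9, 34.5, 33.9 and 34.7 in *apob-M*, and at 27.0, 28.5, 21.6 and 25.0 in *apob-S*. The *apob-M* libraries lay in the upper part of the control range and the *apob-S* libraries below all of it. The log2 fold change was -0.32 ± 0.062 against control (adjusted p = 0.000596) and -0.41 ± 0.068 against *apob-M* (adjusted p = 0.000361).

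The transcript with the best hit DRC3 (dd_Smed_v6_10834_0_1), another subunit of the nexin-dynein regulatory complex, fell from 15.1 to 18.0 CPM in control to 13.4, 14.1, 11.2 and 13.5 CPM in *apob-S* (-0.32, adjusted p = 0.00286). Its closest zebrafish protein is drc3 but its closest mouse protein is Lrrc56, so its match is uncertain. WDR66, a protein of the radial spoke base also called CFAP251, passed the threshold narrowly in *apob-S* (-0.16, adjusted p = 0.0471), and that call was lost in 18 alternative settings, 11 of which left out a library (adjusted p 0.0504 to 0.147). The homologs of LRRC6, a dynein assembly factor, and LRRC23, a radial spoke protein, did not pass in *apob-S*, with changes of -0.18 and -0.33. LRRC23 had the lowest counts of the 48, with 11 reads in its lowest library, and its SE was wide in the plot of fold changes.

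Of the 7 homologs of intraflagellar transport, the BBSome and the ciliary base, 4 fell in *apob-S* (57.1%), beside 15.7% of all transcripts tested. All 7 had a negative fold change there, and the median was -0.214. In *apob-M* the median was 0.017. No homolog of this group passed there, where 7.05% of all transcripts rose and 8.24% fell, and 1 was lower at an unadjusted p under 0.05. Between the knockdown groups 3 were lower in *apob-S* (42.9%, beside 6.86% of all transcripts).

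The ARMC9 homolog (dd_Smed_v6_10926_0_1), a protein of the ciliary base and tip that is altered in Joubert syndrome, was found at 19.3 to 21.3 CPM in control (median 20.0), at 19.2, 21.5, 18.5 and 21.8 in *apob-M*, and at 16.7, 14.7, 16.1 and 17.3 in *apob-S*. The *apob-S* libraries lay below all others. It fell by 0.31 on the log2 scale in *apob-S* (SE 0.061, adjusted p = 0.000658) and differed from *apob-M* by a similar amount (-0.32, adjusted p = 0.00264).

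WDR19 (dd_Smed_v6_10987_0_1), also called IFT144, belongs to the complex that returns cargo from the tip of the cilium to its base. Its level was 28.8 to 32.9 CPM in control (median 29.3), 29.8, 31.8, 30.1 and 32.6 CPM in *apob-M*, and 26.2, 23.9, 27.5 and 25.5 CPM in *apob-S*. For WDR19 only *apob-S* left the control range, with a log2 fold change of -0.21 ± 0.049 against control (adjusted p = 0.00247) and -0.27 ± 0.054 against *apob-M* (adjusted p = 0.00212).

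IFT27 (dd_Smed_v6_11026_0_1), a small GTPase of the outward transport complex, was found at 5.69 to 8.07 CPM in control (median 6.81), at 5.36, 4.95, 5.48 and 6.54 in *apob-M*, and at 5.11, 5.84, 3.82 and 4.75 in *apob-S*. Here 1 *apob-S* library overlapped with control, the fold change in *apob-S* was -0.47 ± 0.12 (adjusted p = 0.00671), and that in *apob-M*, -0.27 ± 0.12, did not pass (adjusted p = 0.142). LRRCC1 (dd_Smed_v6_10086_0_1), a centriole protein, was found at 17.6 to 23.6 CPM in control (median 19.9), at 18.9, 22.9, 19.2 and 19.0 in *apob-M*, and at 15.8, 18.2, 17.7 and 15.0 in *apob-S*. Its decrease of 0.29 on the log2 scale in *apob-S* (adjusted p = 0.0144) came with 2 libraries inside the control range, and was lost without *apob-S* replicate 1 (adjusted p = 0.0515) or replicate 4 (adjusted p = 0.0573).

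The remaining transport homologs did not pass against control. IFT172, of the outward transport complex, had a change of 0.08 in *apob-M* and -0.10 in *apob-S* and differed between these groups (-0.19, adjusted p = 0.0275), a call lost in 7 alternative settings, among them those without *apob-M* replicate 2 or *apob-S* replicate 2, 3 or 4 (adjusted p 0.0501 to 0.116). WDR60, an intermediate chain of the dynein that drives the return transport, had changes of 0.12 and -0.10. BBS2, of the BBSome, which sorts membrane proteins of the cilium, had the smallest change of this group in *apob-S* (-0.08, adjusted p = 0.331).

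**Figure D3:**
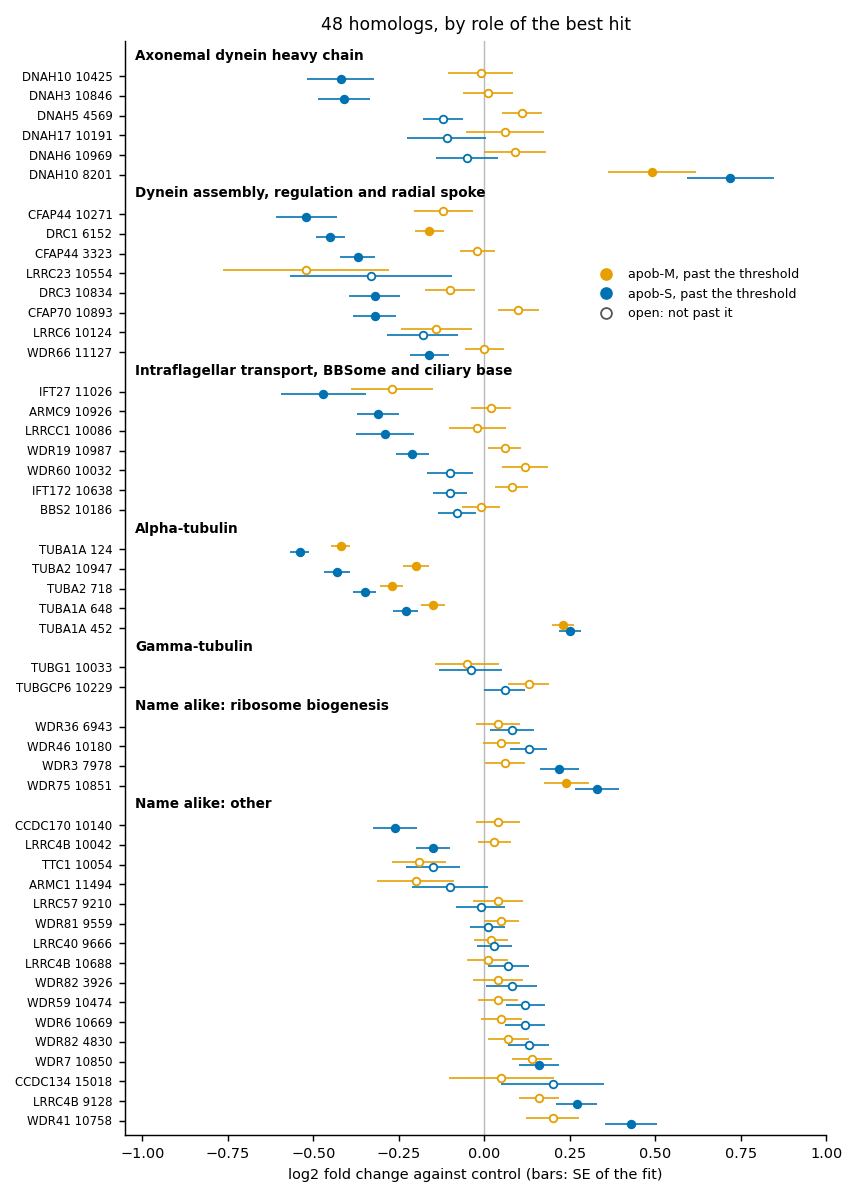
log2 fold change against control (x axis) with its SE for each of the 48 homologs, in *apob-M* (orange) and *apob-S* (blue), grouped by the role of the best hit. Filled points passed an adjusted p of 0.05. Names give the best hit and the distinguishing number of the transcript identifier. In the 3 upper groups the blue points lie to the left of 0 except for the shorter DNAH10 homolog, while the orange points lie on both sides of it.

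The 5 alpha-tubulin homologs, subunits of every microtubule and not of cilia alone, differed from the groups above in that all 5 passed the threshold in both knockdown groups. They were also the most abundant homologs per kilobase, at 245 to 636 CPM in control. A read matching more than 1 transcript was counted for every match, and alpha-tubulins with like sequence therefore share counts, and each of their values is uncertain.

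The TUBA1A homolog dd_Smed_v6_124_0_1 was found at 977 to 1020 CPM in control (median 1000), at 746, 710, 760 and 770 in *apob-M*, and at 684, 686, 696 and 688 in *apob-S*. The 3 groups did not overlap. It fell by 0.42 on the log2 scale in *apob-M* (SE 0.027, adjusted p = 3.37e-09) and by 0.54 in *apob-S* (SE 0.027, adjusted p = 3.48e-11), the most negative change of the 48 in that group. The step between the knockdown groups was small (-0.12 ± 0.030, adjusted p = 0.0118) and did not pass in edgeR's exact test (adjusted p = 0.424) or with library size alone (-0.14, adjusted p = 0.0969).

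The TUBA2 homolog dd_Smed_v6_10947_0_1 was graded in the same order, from 363 to 398 CPM in control (median 382) to 316, 331, 324 and 355 in *apob-M* and 272, 288, 280 and 291 in *apob-S*. Its fold changes were -0.20 ± 0.038 and -0.43 ± 0.038, and the step between the knockdown groups was -0.23 ± 0.042 (adjusted p = 0.00094). The other TUBA2 homolog (dd_Smed_v6_718_0_1) went from 338 to 362 CPM in control (median 353) to 287, 291, 286 and 299 in *apob-M* and 264, 283, 273 and 288 in *apob-S*, where the knockdown groups overlapped with each other. Its fold changes were -0.27 ± 0.034 and -0.35 ± 0.034. The TUBA1A homolog dd_Smed_v6_648_0_1 fell less, by 0.15 and 0.23 on the log2 scale, and its call in *apob-M* was lost in edgeR's exact test (adjusted p = 0.177) and with library size alone (adjusted p = 0.075).

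The most abundant alpha-tubulin per kilobase, the TUBA1A homolog dd_Smed_v6_452_0_1, rose. Control libraries were at 941 to 1010 CPM (median 985), *apob-M* at 1120, 1190, 1160 and 1130, and *apob-S* at 1100, 1210, 1170 and 1200. All 8 knockdown libraries lay above all controls, with no difference past the threshold between the knockdown groups (0.02, 95% interval -0.05 to 0.10). The fold changes against control were 0.23 ± 0.032 (adjusted p = 4.94e-05) and 0.25 ± 0.032 (adjusted p = 4.62e-06).

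The homologs of gamma-tubulin (TUBG1), which nucleates microtubules at centrosomes and basal bodies, and of its complex partner TUBGCP6 did not pass in any comparison. In *apob-S* their changes were -0.04 (adjusted p = 0.818) and 0.06 (adjusted p = 0.528).

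**Figure D4:**
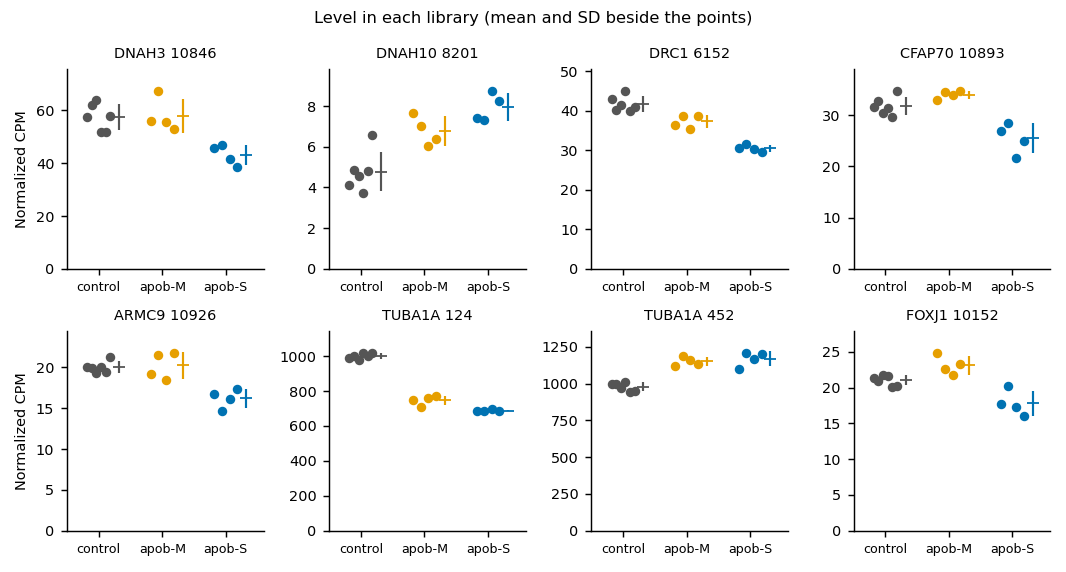
Normalized CPM in each library (y axis, from 0) for 8 transcripts, with 1 point per library and the mean and SD beside the points. DNAH3, CFAP70 and ARMC9 lie lower in *apob-S* than in both other groups, DRC1 and TUBA1A dd_Smed_v6_124_0_1 are lower in both knockdown groups, and the shorter DNAH10 homolog and TUBA1A dd_Smed_v6_452_0_1 are higher in both. FOXJ1, a transcription factor outside the named families, is shown for comparison.

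Among the name-alike homologs, 4 are homologs of ribosome biogenesis factors (WDR3, WDR36, WDR46 and WDR75). In *apob-S* 2 of them rose (50%), beside 13.5% of all transcripts tested. The WDR75 homolog (dd_Smed_v6_10851_0_1) was found at 11.9 to 14.9 CPM in control (median 13.4), at 16.2, 16.2, 15.2 and 16.0 in *apob-M*, and at 18.3, 17.4, 16.1 and 15.5 in *apob-S*. Both knockdown groups lay above control, with fold changes of 0.24 ± 0.066 (adjusted p = 0.0154) and 0.33 ± 0.065 (adjusted p = 0.000644). The WDR3 homolog (dd_Smed_v6_7978_0_1) was at 18.4 to 20.2 CPM in control (median 18.7), 20.0, 17.3, 21.9 and 19.8 in *apob-M*, and 21.6, 21.8, 21.7 and 23.2 in *apob-S*. It rose in *apob-S* by 0.22 ± 0.058 (adjusted p = 0.00724), where no library overlapped with control. WDR36 and WDR46 had changes of 0.08 and 0.13 in *apob-S* that did not pass.

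Of the 16 other name-alike homologs, 3 rose (18.8%) and 2 fell (12.5%) in *apob-S*, beside 13.5% and 15.7% of all transcripts tested. The WDR41 homolog (dd_Smed_v6_10758_0_1), known in mammals as a partner of C9orf72 at lysosomes, showed the largest increase, from 10.2 to 13.3 CPM in control (median 12.5) to 15.6, 12.8, 15.4 and 12.7 in *apob-M* and 16.4, 17.0, 16.5 and 16.7 in *apob-S*. The *apob-S* libraries lay within a narrow range above all others, and the log2 fold change was 0.43 ± 0.076 (adjusted p = 0.000197). One transcript with the best hit LRRC4B, a synaptic adhesion protein, rose (dd_Smed_v6_9128_0_1). It was at 18.3 to 21.0 CPM in control (median 19.2), 20.6, 20.4, 22.7 and 22.5 in *apob-M*, and 24.2, 24.2, 20.4 and 23.9 in *apob-S*, with 1 *apob-S* library inside the control range and a change of 0.27 ± 0.059 in *apob-S* (adjusted p = 0.00187). Of the other transcripts with this best hit, dd_Smed_v6_10042_0_1 fell (-0.15, adjusted p = 0.0238), a call lost in 6 alternative settings, among them those without control replicate 2 or 6 or *apob-S* replicate 4 (adjusted p 0.051 to 0.12), and dd_Smed_v6_10688_0_1 did not pass (0.07, adjusted p = 0.415).

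The CCDC170 homolog (dd_Smed_v6_10140_0_1), a microtubule-associated coiled-coil protein, followed the order of the cilium-role homologs. It was found at 29.0 to 33.8 CPM in control (median 30.3), at 29.6, 35.9, 29.8 and 30.9 in *apob-M*, and at 26.8, 28.1, 24.7 and 22.9 in *apob-S*. No *apob-S* library overlapped with either other group, and the change was -0.26 ± 0.065 (adjusted p = 0.00453). The WDR7 homolog (dd_Smed_v6_10850_0_1), known in mammals as a partner of the vacuolar proton pump, was at 24.3 to 30.2 CPM in control (median 25.7), 27.6, 28.4, 28.1 and 31.0 in *apob-M*, and 30.1, 28.2, 30.9 and 27.8 in *apob-S*. The groups overlapped, and its increase of 0.16 (adjusted p = 0.0409) was lost in 12 alternative settings, 7 of which left out a library (adjusted p 0.0516 to 0.141). The other 11 homologs of this group, among them those of WDR6, WDR59, WDR81, WDR82 and TTC1, did not pass in any of the 3 comparisons.

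A further 19 transcripts carry best hits to axoneme, ciliary base and cilium transcription factors but fall outside the rule. Bbof1 and Cfap161 were taken by their mouse best hit, as no human one was given. The others have a human best hit outside the named families. Of the 19, 6 fell (31.6%) and 1 rose (5.26%) in *apob-S*, beside 15.7% and 13.5% of all transcripts tested. The median of the 19 was -0.126. In *apob-M* 1 fell (5.26%), beside 8.24% of all transcripts, with a median of 0.031. FOXJ1 (dd_Smed_v6_10152_0_1), the transcription factor that switches on motile cilium genes, was found at 20.1 to 21.8 CPM in control (median 21.1), at 24.9, 22.6, 21.8 and 23.3 in *apob-M*, and at 17.7, 20.2, 17.3 and 16.0 in *apob-S*. All but 1 of the *apob-S* libraries lay below control and the *apob-M* libraries lay at or above its highest value. It fell in *apob-S* by 0.24 on the log2 scale (SE 0.060, adjusted p = 0.00518), the change in *apob-M* was 0.14 ± 0.059 (adjusted p = 0.125), and the difference between them was -0.38 ± 0.065 (adjusted p = 0.000638).

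The DAW1 homolog (dd_Smed_v6_16089_0_1), a factor for the delivery of outer dynein arms, had the most negative change of this list in *apob-S*, from 6.9 to 10.1 CPM in control to 6.39, 5.29, 4.89 and 3.81 CPM (-0.65 ± 0.13, adjusted p = 0.00075). MAATS1, a radial spoke protein also called CFAP91, fell by 0.43 on the log2 scale (adjusted p = 0.000608), and TTLL8, which adds glycine to the tubulins of cilia, by 0.17 (adjusted p = 0.0106). The centriole homologs CEP120 and POC1B fell by 0.39 and 0.35 in *apob-S*, though the closest mouse protein of the latter is Wdr31. CEP97 (dd_Smed_v6_11066_0_1), which caps centrioles and restrains the growth of cilia in mammalian cells, rose by 0.62 ± 0.090 in *apob-S* (adjusted p = 2.81e-05), from 12.2 to 19.3 CPM in control to 25.2, 22.9, 25.7 and 25.8 CPM. CEP19 fell in *apob-M* (-0.37, adjusted p = 0.0223) and did not pass in *apob-S* (-0.18, adjusted p = 0.222).

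Of 6 homologs of dynein light and intermediate chains, 5 are of the DYNLL light chains that cytoplasmic and axonemal dyneins share. The other 1 is of DYNC1I2, an intermediate chain of cytoplasmic dynein. In *apob-S* 4 fell (66.7%) and 1 rose (16.7%), beside 15.7% and 13.5% of all transcripts tested. In *apob-M* 2 fell (33.3%), beside 8.24%. Only 1 homolog lay below all controls in *apob-S* without overlap. Control replicate 1 was low for this list, with a median log2 level of -0.33 against the control mean. DYNLL1 (dd_Smed_v6_409_0_1) went from 85.6 to 113 CPM in control to 75.9, 81.1, 82.8 and 77.8 CPM in *apob-S* (-0.36, adjusted p = 0.000388), and the one that rose (DYNLL2, dd_Smed_v6_10084_0_1) was found at only 1.01 to 2.1 CPM in control. Of 4 homologs of tubulin folding cofactors, TBCEL, which in mammals destabilises tubulin, rose in both knockdown groups, by 0.16 in *apob-M* (adjusted p = 0.0292) and by 0.15 in *apob-S* (adjusted p = 0.0245).

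Markers of other cell types moved in the same libraries. The epidermal progenitor marker *prog-1* was at 269 to 321 CPM in control, 225 to 267 in *apob-M* and 155 to 191 in *apob-S*, and its log2 fold changes were -0.22 and -0.75. The pharynx marker *laminin* was at 53.8 to 76.1 CPM in control, 36.1 to 48.1 in *apob-M* and 30.3 to 32.3 in *apob-S*, and its changes were -0.44 and -0.97. The stem cell marker *piwi-1* did not pass (0.02 and 0.09), *tgs-1*, also of stem cells, rose in both (0.68 and 0.64), and the neuron marker *ChAT* rose in *apob-M* (0.22) and did not pass in *apob-S* (0.04). Of the markers of cathepsin-positive cells, *npc2* fell in both (-0.40 and -0.23) and *slc22a6* rose in both (0.25 and 0.35), while the intestine marker *ctsla* passed in neither (0.00 and -0.03). Like 10 of the cilium-role homologs, *prog-1* and *laminin* were also lower in *apob-S* relative to *apob-M*, with a difference of -0.53 each. The part of these cell types in the change of the cilium-role homologs was not tested.

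The level of long transcripts also varied between libraries, with overlap between the groups. Over the 412 transcripts of at least 5000 bases, 6 of them homologs described here, the log2 fold changes had a median of 0.086 in *apob-M*, against 0.035 in *apob-S*. By library, their median log2 level against the control mean was -0.049 to 0.043 in control, 0.027 to 0.129 in *apob-M* and -0.055 to 0.087 in *apob-S*. After a correction for length, 13 of the 21 cilium-role homologs fell in *apob-S* and 8 were lower in *apob-S* relative to *apob-M*. Over all transcripts tested, 30% and 12.7% then passed in these comparisons in either direction. The difference of the DNAH5 homolog between the knockdown groups went from -0.23 to -0.13 (adjusted p = 0.195).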

How the data were processed

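The libraries (6 control, 4 *apob-M*, 4 *apob-S*, 14 in all) took their groups from the labels. After trimming with BBDuk, the authors ran Bowtie2 2.3.1 alignments to the unique dd_Smed_v6 transcripts with all alignments kept, and counted reads with featureCounts (Subread 1.6.3), multi-mapping and multi-overlapping reads included. The authors deposited these counts without normalization. Strandedness is not given in the sources used here. From the authors' table of their own *apob(RNAi)* comparisons only the best hits were taken, and its log2 fold changes and p-values were not used.

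Transcripts that reached 1 CPM in 4 or more libraries (18436 of 28069) were fitted with edgeR 4.0.16 in R 4.3.3, with the quasi-likelihood test, TMM factors and group as the only term over all 14 libraries, and p-values were adjusted by Benjamini-Hochberg over all of them. Where groups did not overlap, a two-sided exact permutation test on log2 CPM gave 0.00952 for 6 against 4 libraries and 0.0286 for 4 against 4, the smallest p it can give. Scripts were tested on simulated counts. Alternatives were edgeR's exact test, DESeq2 1.42.0, RLE size factors, scaling by library size alone, a filter at 5 CPM or none, a fit of just the 2 groups compared, a replicate block, each library left out in turn and, chosen after seeing the data, a length correction.

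Best hits came from the study's tables, held in part (1195, 1074 and 971 rows). The members and lists were chosen with earlier results of these data known. Named with values in every library were, in each role group, up to 4 homologs past the threshold with the largest absolute fold change in *apob-S*, and other homologs by fold change or count. No sequences of these transcripts were used here.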

Additional observations from a re-analysis of the deposited data

Results flagged for a closer look

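A single library stood apart from the rest of its group, by Dixon's test at the 95% level, in 12 of the 150 groups of values checked, where chance gives about 5%. Among the cilium-role homologs these were DNAH10 (dd_Smed_v6_10425_0_1) at 42.7 CPM in control replicate 3, LRRCC1 at 22.9 CPM in *apob-M* replicate 2 and WDR19 at 32.9 CPM in control replicate 6. Each of these libraries was the highest of its group. Among the name-alike homologs, WDR41 was low in control replicate 4 (10.2 CPM), WDR7 high in control replicate 6 (30.2 CPM), LRRC4B (dd_Smed_v6_9128_0_1) low in *apob-S* replicate 3 (20.4 CPM) and WDR3 high in *apob-S* replicate 4 (23.2 CPM). Outside the named families, MAATS1 was high in control replicate 1 (15.2 CPM), TTLL8 low in *apob-M* replicate 1 (39.1 CPM) and DYNLL2 (dd_Smed_v6_10084_0_1) high in *apob-S* replicate 4 (4.16 CPM). The markers npc2 and laminin were low in *apob-M* replicate 4 (348 CPM) and *apob-M* replicate 1 (36.1 CPM).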

How the results depend on the processing

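No homolog changed direction past the threshold under any alternative run. With library size alone as the scaling, 3 rather than 5 homologs fell in *apob-M*, and 0 rather than 1 of those with a cilium role, and the cause was not tested. Calls over all transcripts tested also became fewer there, with 9.74% past the threshold in either direction. In the main fit 7.05% rose and 8.24% fell. With each library left out in turn, 2 to 4 homologs rose and 5 to 6 fell in *apob-M*, 6 to 8 rose and 15 to 18 fell in *apob-S*, and 0 to 2 were higher and 11 to 15 lower in *apob-S* relative to *apob-M*. Over all transcripts tested, 11.5% to 15.8% then passed in either direction in *apob-M*, 25.8% to 29.2% in *apob-S* and 8.85% to 12.1% between these groups. Of the cilium-role homologs, 0 to 1 rose and 1 fell in *apob-M*, 1 rose and 10 to 12 fell in *apob-S*, and 0 were higher and 7 to 11 lower in *apob-S* relative to *apob-M*. Their median log2 fold change ranged from -0.037 to 0.029 in *apob-M*, from -0.305 to -0.235 in *apob-S* and from -0.263 to -0.19 between these groups.

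The replicate numbers did not pair the samples. Deviations from the group means correlated between same-numbered libraries at -0.198 to 0.125 (median 0.044, 12 pairs), and 1 pair passed 0.1. With the number as a block, 4 homologs rose and 5 fell in *apob-M*, 7 rose and 16 fell in *apob-S*, and 13 were lower in *apob-S* relative to *apob-M*. In these comparisons 11.4%, 25.3% and 11.5% of all transcripts tested passed in either direction. Transcripts with few reads, such as LRRC23, allow only large changes to be seen, and pools of 5 to 6 animals give the spread between pools, not between animals.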
